A study of Homo sapiens with 12 samples.

Results

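The mRNA levels of metallothionein and zinc response genes were examined in the leukemia lines MOLM-13 and THP-1, with and without Jiyuan oridonin A (JOA). The genes were taken by symbol, and 7 of the 20030 rows of the expression table matched, namely the metallothioneins MT1E, MT1F, MT1G, MT1X and MT2A, the zinc exporter SLC30A1 and the transcription factor MTF1. MOLM-13 and THP-1 are established acute myeloid leukemia lines that carry a rearranged MLL gene; MOLM-13 cells express FLT3 with an internal tandem duplication and THP-1 cells express wild-type FLT3. JOA is an ent-kaurene diterpenoid from the plant Isodon rubescens, and the study asked whether it relieves the differentiation block of such cells. JOA was given for 48 h, at 0.5 μM to MOLM-13 and at 2 μM to THP-1 cells, control cells received DMSO for the same time, and each of the 4 groups had 3 libraries. One legend of the study gives a longer incubation than the sample records and methods do. The dose differed between the lines, so an effect of the line and an effect of the dose cannot be told apart.

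Metallothioneins are small, cysteine-rich proteins that bind zinc and copper, and they buffer the free zinc of the cell. When zinc rises, the zinc finger factor MTF1 binds metal response elements (MREs) in the promoters of metallothionein genes and of SLC30A1, whose product (also known as ZnT1) moves zinc out of the cytosol across the plasma membrane. Cadmium, oxidants, electrophiles and glucocorticoids also induce metallothionein genes, and most human members sit side by side on chromosome 16.

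In the GENCODE annotation of GRCh38, 11 metallothionein genes with a row in the table lay within 119.1 kb of chromosome 16 (56565049 to 56684196). The members were MT2A (56608199 to 56609497), MT1E (56625475 to 56627112), MT1F (56657694 to 56660698) and MT1X (56682424 to 56684196) on the plus strand and MT1G (56666731 to 56668065) on the minus strand. SLC30A1 (211571568 to 211578742) and MTF1 (37809567 to 37859620) lay on the minus strand of chromosome 1. Promoter windows of 300 bases, from 250 bases before to 50 bases after the RefSeq start site, were at hand for 4 of the 7 members (MT1X, MT2A, SLC30A1 and MTF1). The 250 bases before the start are printed for 2 abundant metallothioneins, for MT1H, which was above 0 only in MOLM-13 libraries, and for SLC30A1, with each match to the MRE core (TGCACNC or TGCGCNC, either strand) in capitals.
MT2A, GRCh38.p14 chr16:56608334-56608583, plus strand: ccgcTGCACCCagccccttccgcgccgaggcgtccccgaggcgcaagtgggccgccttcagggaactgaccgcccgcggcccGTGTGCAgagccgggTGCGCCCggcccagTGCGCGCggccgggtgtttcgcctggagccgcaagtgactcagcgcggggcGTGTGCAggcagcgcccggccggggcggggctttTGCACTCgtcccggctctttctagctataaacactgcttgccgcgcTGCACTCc
MT1X, GRCh38.p14 chr16:56682220-56682469, plus strand: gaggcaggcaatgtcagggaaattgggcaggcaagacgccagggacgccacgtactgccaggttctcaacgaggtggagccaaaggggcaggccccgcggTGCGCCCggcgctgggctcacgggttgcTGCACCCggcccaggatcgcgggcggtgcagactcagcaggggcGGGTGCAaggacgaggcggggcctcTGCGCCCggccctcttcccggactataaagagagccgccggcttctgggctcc
MT1H, GRCh38.p14 chr16:56669564-56669813, plus strand: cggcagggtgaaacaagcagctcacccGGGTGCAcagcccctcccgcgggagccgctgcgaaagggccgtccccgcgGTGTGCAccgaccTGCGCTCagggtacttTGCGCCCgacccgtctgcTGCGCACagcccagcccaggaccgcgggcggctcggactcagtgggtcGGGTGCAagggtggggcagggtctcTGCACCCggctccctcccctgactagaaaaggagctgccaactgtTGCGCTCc
SLC30A1, GRCh38.p14 chr1:211579162-211579411, minus strand: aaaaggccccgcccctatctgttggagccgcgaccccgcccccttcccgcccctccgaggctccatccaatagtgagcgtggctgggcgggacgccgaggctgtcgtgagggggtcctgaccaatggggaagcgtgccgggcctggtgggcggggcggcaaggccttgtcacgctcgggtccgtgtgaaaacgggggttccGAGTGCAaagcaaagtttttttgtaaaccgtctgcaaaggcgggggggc

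By the GENCODE annotation, the printed MT2A window lies inside the span of the gene and the MT1X window reaches into it, because the RefSeq start sites lie further downstream. For SLC30A1 the RefSeq start site lies further upstream, and its whole window lies before the span of the gene. The counts below hold for the RefSeq start sites. The windows differed in how densely they held the core. Counted over all 300 bases, MT2A held 8 matches and MT1H also held 8, a count reached by 0.02% of 34943 RefSeq promoters. MT1X held 4 matches, and 0.598% of promoters held 4 or more. SLC30A1 held 2 matches, 1 of them after the start site, and 8.58% of promoters held 2 or more. MTF1 held none, like most promoters, since 29.5% had at least 1. The metallothioneins MT1B and MT4 held 3 matches each, and 2.3% of promoters held 3 or more. The antioxidant response element core (TGACNNNGC, either strand), to which NRF2 and related factors bind, occurred once in the windows of MT2A, MT1X, SLC30A1 and MT1B and in 13.3% of all promoters. No match of this core overlapped an MRE core. These matches are letters in a window and were not measured as bound sites.

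**Figure D1:**
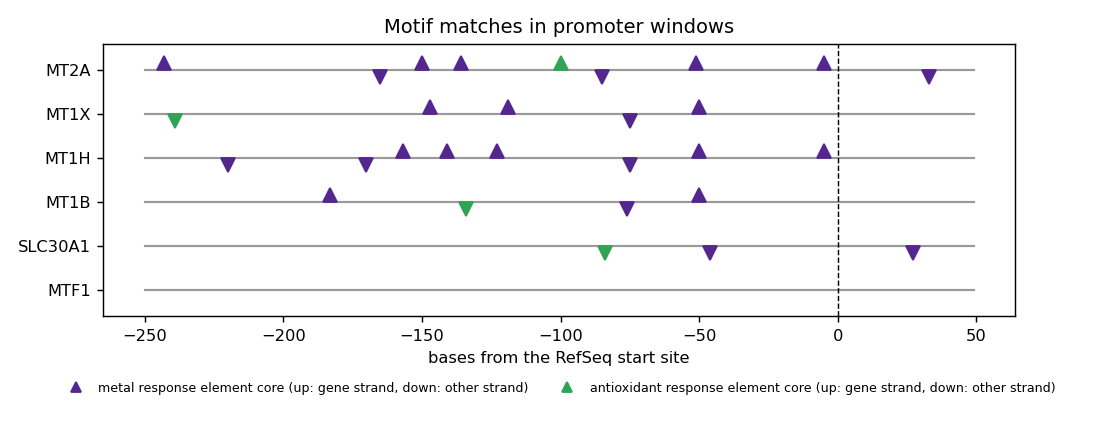
Positions of motif matches in 6 promoter windows, in bases from the RefSeq start site (dashed line); triangles pointing up are on the strand of the gene and those pointing down on the other strand. MT2A and MT1H have 8 metal response element cores each, MT1X 4, MT1B 3, SLC30A1 2 and MTF1 none.

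The coding sequences of the 3 most abundant metallothioneins are printed to show how alike they are, with the cysteine codons in capitals (annotated transcripts MT2A-201, MT1G-202 and MT1X-201).
MT2A coding sequence: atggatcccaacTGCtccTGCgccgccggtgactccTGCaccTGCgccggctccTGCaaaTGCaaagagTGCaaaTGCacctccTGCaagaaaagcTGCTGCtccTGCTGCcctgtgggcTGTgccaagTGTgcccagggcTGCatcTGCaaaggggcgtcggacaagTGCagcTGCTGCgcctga
MT1G coding sequence: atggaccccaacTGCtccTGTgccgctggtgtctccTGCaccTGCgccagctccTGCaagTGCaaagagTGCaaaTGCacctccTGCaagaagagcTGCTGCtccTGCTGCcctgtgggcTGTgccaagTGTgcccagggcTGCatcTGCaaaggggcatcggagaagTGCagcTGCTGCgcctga
MT1X coding sequence: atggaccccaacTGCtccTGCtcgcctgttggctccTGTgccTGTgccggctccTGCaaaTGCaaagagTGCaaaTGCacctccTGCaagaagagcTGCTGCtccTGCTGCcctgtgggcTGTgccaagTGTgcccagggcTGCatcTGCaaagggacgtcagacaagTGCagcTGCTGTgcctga

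Each of the 5 metallothionein members had a coding sequence of 186 bases with 61 codons before the stop, and 20 of these codons encoded cysteine. Any 2 of the 5 shared 88.71% to 95.16% of their bases, and MT1G and MT1X shared an unbroken run of 96 bases. MT1G and MT2A were the most alike, with 95.16% identity. How fragments that match several of these genes were assigned is not given in the sources used here, so the value of each single metallothionein is less certain than their sum.

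Expression was deposited as FPKM, a count of fragments scaled to the length of the gene's exons and to the mapped fragments of the library. Total depth is unknown; low values gave an approximate depth of 0.8886 to 1.071 relative to control replicate 1 of each line. Of 12 myeloid markers, 10 in MOLM-13 and 11 in THP-1 groups had a mean of at least 1 FPKM (CD14 was below it in all groups), and of 16 markers of T, B, epithelial, erythroid, endothelial and stromal cells 1 to 3 did. The sample records number the libraries 1 to 3 in each group but do not say that they were separate cultures, so p-values describe the spread between these libraries, which may be technical. Same-numbered control and JOA libraries deviated together from their group means in both lines (r from 0.407 to 0.5804 in MOLM-13 and from 0.297 to 0.541 in THP-1 cells, across genes), so the fit with the replicate number as a block is also given where it changes a call. In every group, the library numbered 1 had the highest value of all 5 metallothioneins.

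All 5 metallothioneins were transcribed in both lines, and the mean of their summed level was lower in THP-1 than in MOLM-13 cells, with ranges that overlapped. The sum was 368, 215 and 182 FPKM in the 3 MOLM-13 control libraries and 262, 179 and 165 FPKM in the 3 MOLM-13 JOA libraries. It was 211, 154 and 124 FPKM in the THP-1 control libraries and 146, 100.2 and 98.97 FPKM in the THP-1 JOA libraries. Replicate 1 stood above the other libraries of its group each time, and control and JOA ranges overlapped in both lines. The mean sum was 255 ± 98.7 FPKM (SD, n = 3) in MOLM-13 control, 202 ± 52.7 in MOLM-13 JOA, 163 ± 44.2 in THP-1 control and 115 ± 26.8 in THP-1 JOA libraries. RNA was taken from whole cultures, so fewer expressing cells and less RNA per cell cannot be told apart.

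**Figure D2:**
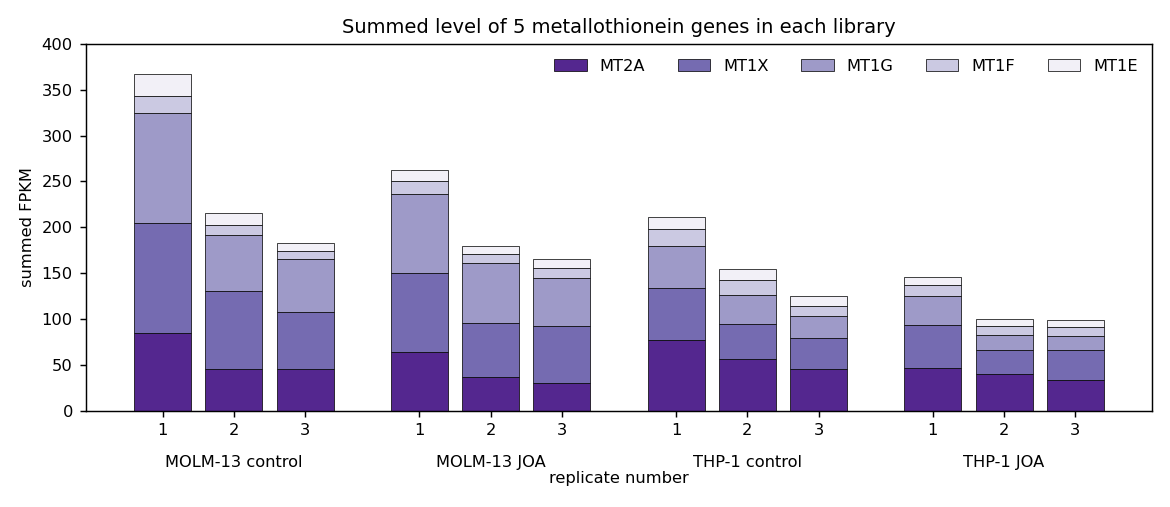
Summed FPKM of MT2A, MT1X, MT1G, MT1F and MT1E in each of the 12 libraries, 1 bar a library. Replicate 1 is the highest bar of every group, from 368 FPKM in MOLM-13 control to 146 FPKM in THP-1 JOA cells.

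The make-up of the sum differed between the lines. In MOLM-13 libraries MT1X gave 32.5% to 39.5% of it, MT1G 28.4% to 36.6% and MT2A 18.2% to 24.8%. In THP-1 libraries MT2A gave 31.6% to 39.4%, MT1X 25.0% to 32.9% and MT1G 15.2% to 21.9%, and MT2A came first in all but JOA replicate 1, where MT1X (32.2%) was just above it (31.6%). MT1E and MT1F each gave under 11% in every library. The ranges of MT1G and of MT2A did not overlap between the lines. In FPKM, the order of mean levels in MOLM-13 control cells was MT1X, MT1G, MT2A, MT1E, MT1F, SLC30A1 and MTF1. Among neighbours in this order, the ranges of MT1X and MT1G, of MT1G and MT2A, and of MT1E and MT1F overlapped. Further apart, those of MT1X and MT2A and of MT1E and SLC30A1 overlapped too. In THP-1 control cells the order was MT2A, MT1X, MT1G, MT1F, SLC30A1, MT1E and MTF1. Neighbours that overlapped were MT2A and MT1X, MT1X and MT1G, and MT1F and SLC30A1. Further apart, MT2A and MT1G and also MT1F and MT1E overlapped.

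In THP-1 cells the metallothioneins and SLC30A1 were lower in each JOA library than in the control library of the same number, and MTF1 was higher, but none of the 7 passed the thresholds of the comparison without pairing. MT2A, the most widely expressed metallothionein, was at 77.3, 55.7 and 45.3 FPKM in control and at 46.2, 39.5 and 33.7 FPKM in JOA libraries. The highest JOA library lay just above the lowest control library, so the groups overlapped. The JOA to control ratios of same-numbered libraries were 0.597, 0.708 and 0.743. The log2 fold change of MT2A was -0.56 (SE 0.19), with an adjusted p of 0.201 from limma without the block and 0.00792 with it. Its fold stayed under the threshold of 0.58 in size, so that MT2A was not called in either fit.

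MT1G, a metal-inducible isoform, showed the widest difference. It was at 46.4, 32.4 and 24.2 FPKM in control and at 31.8, 17.2 and 15.0 FPKM in JOA libraries. JOA replicate 1 lay above control replicate 3, while the pair ratios were 0.686, 0.531 and 0.619. MT1G had a log2 fold change of -0.71 (SE 0.31, limma adjusted p = 0.294). With the replicate block the SE was 0.07 and the adjusted p 0.00659, which made MT1G the 1 member called as lower.

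MT1X was at 56.2, 38.5 and 33.3 FPKM in control and at 47.0, 26.1 and 32.6 FPKM in JOA libraries. The groups overlapped, and replicate 3 hardly differed, with a ratio of 0.977. MT1X had a log2 fold change of -0.28 (SE 0.24, limma adjusted p = 0.6003), and with the block the adjusted p was 0.0974. MT1F was at 18.4, 16.4 and 11.4 FPKM in control and at 11.7, 9.22 and 9.94 FPKM in JOA libraries. Only control replicate 3 lay within the JOA range. Its log2 fold change was -0.55 (SE 0.17), with an adjusted p of 0.167 from limma and of 0.0283 with the block.

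MT1E was the 1 metallothionein whose THP-1 groups did not overlap. It was at 13.2, 11.02 and 10.2 FPKM in control and at 9.38, 8.28 and 7.79 FPKM in JOA libraries. Its pair ratios were close to each other, at 0.713, 0.751 and 0.762. MT1E had a log2 fold change of -0.43 (SE 0.11, limma adjusted p = 0.112), and the adjusted p was 0.00835 with the block.

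SLC30A1 was at 14.7, 13.7 and 15.6 FPKM in THP-1 control libraries and at 12.4, 12.5 and 13.1 FPKM in JOA libraries. The groups did not overlap, and replicate 1 was not the highest in either. The log2 fold change of the exporter was -0.21 (SE 0.06, limma adjusted p = 0.161; 0.0443 with the block). MTF1 was at 5.04, 5.40 and 6.11 FPKM in control and at 6.58, 6.81 and 6.27 FPKM in JOA libraries, so that every JOA library lay above every control library. Its log2 fold change was 0.25 (SE 0.08, limma adjusted p = 0.198; 0.101 with the block).

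Thus 3 of 7 members had THP-1 groups that did not overlap (MT1E and SLC30A1 lower, MTF1 higher), against 23.4% of the 12712 genes tested, 8.81% lower and 14.6% higher. An exact permutation test of 3 against 3 libraries cannot give a two-sided p below 0.1. Groups that do not overlap always give that p, so for these 3 genes the test adds nothing to the lack of overlap. By the thresholds of the study (adjusted p under 0.05 and a log2 fold change of at least 0.58 in size), 0 of 7 members were called, against 0.134% of all genes tested (17 genes). At an unadjusted limma p under 0.05 there were 6 of 7 members, against 16.9% of all genes, and with the block 7 of 7, against 26% of all genes. With the block, 1 of 7 was called, against 1.27% of all genes (0.629% lower), and 5 of 7 had an adjusted p under 0.05, all lower, against 8.06% of all genes (2.69% lower). The members were chosen with earlier results of these data known. The 5 metallothioneins also varied together and share sequence, so the members are not independent and these counts are a description. The median log2 fold change of the 5 metallothioneins was -0.55, and that of all genes tested was 0.02. That of the metallothioneins was -0.35 without control replicate 1 and -0.73 without control replicate 3. It was -0.46 without replicate 1 of both groups, an alternative chosen after the data were seen. Over all alternatives the log2 fold change ran from -0.51 to -0.07 for MT1X, from -1.04 to -0.47 for MT1G and from -0.73 to -0.35 for MT2A. Lower in all 3 pairs were 6 of 7 members, against 19.4% of genes, and MTF1 was higher in all 3, as were 29.3% of genes. The summed level of the 16 markers of other cell types was 26.9 to 28.3 FPKM in THP-1 control and 30.6 to 35.0 FPKM in JOA libraries, with 5 and 6 of them listed at 0 throughout. This sum was mostly PECAM1, which monocytes also express (mean 24.1 FPKM in control and 30.8 FPKM in JOA libraries), while 4 of the 6 markers tested had negative log2 fold changes, with a median of -0.55 over the 6 and none called. The 12 myeloid markers summed to 1227 to 1834 FPKM in control and 1313 to 1601 FPKM in JOA libraries. Most of this sum was LYZ (mean 1032 FPKM in control and 895 FPKM in JOA libraries). None of the 12 was called without the block. With it, 1 was called higher (ITGAM, log2 fold change 0.71) and 1 lower, against 1.27% of all genes. In that fit 6 of the 12 had a limma adjusted p under 0.05, against 8.06% of all genes. The part of these markers in the result was not tested. No member changed direction in THP-1 cells under any of the 20 alternatives run. The filter, the eBayes trend, the block alone, the 1 fit on all libraries and the fold threshold leave the fold change as it is. Only leaving out libraries, rescaling or another pseudocount could have reversed it. In the blocked fit, leaving out replicate 2 of every group gave 2 members called (MT1G and MT2A), against 207 of all 12714 genes. Leaving out replicate 3 gave 3 (MT1F, MT1G and MT2A), against 222 of all 12688 genes. Both alternatives were chosen after the data were seen.

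**Figure D3:**
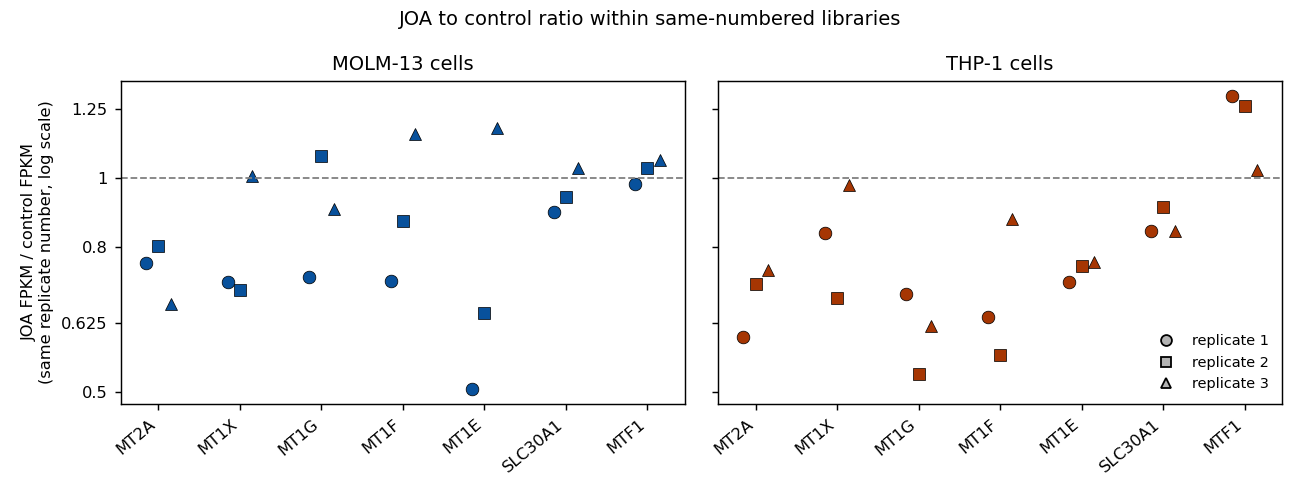
FPKM with JOA divided by FPKM in control for libraries of the same replicate number, on a log axis, 1 symbol a pair; the dashed line marks no difference. In THP-1 cells all 3 symbols of each metallothionein and of SLC30A1 lie below the line and those of MTF1 above it, while in MOLM-13 cells MT2A is the 1 gene with all 3 symbols below it.

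In MOLM-13 cells the metallothionein means were also lower with JOA, but the pairs disagreed for all but MT2A and no member passed the test. MT2A was at 84.8, 45.5 and 45.2 FPKM in control and at 64.4, 36.5 and 30.1 FPKM in JOA libraries. JOA replicate 1 lay above 2 control libraries, and the pair ratios were 0.759, 0.803 and 0.665. The log2 fold change of MT2A was -0.43 (SE 0.31, limma adjusted p = 1.00). With the block the SE was 0.06 and the adjusted p 0.223, although only 3 of 11693 genes had a smaller unadjusted p (0.000111 for MT2A).

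MT1G was at 119.9, 61.1 and 57.8 FPKM in control and at 86.9, 65.6 and 52.2 FPKM in JOA libraries, with pair ratios of 0.725, 1.07 and 0.904. MT1X was at 119.5, 85.1 and 61.8 FPKM in control and at 85.2, 59.2 and 62.1 FPKM in JOA libraries, with pair ratios of 0.713, 0.696 and 1.00. In both genes control replicate 1 was the highest of the 6 libraries and the groups overlapped. Their log2 fold changes were -0.17 (SE 0.28) for MT1G and -0.33 (SE 0.23) for MT1X, each with a limma adjusted p of 1.00.

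MT1E was at 24.0, 12.9 and 8.09 FPKM in control and at 12.1, 8.33 and 9.51 FPKM in JOA libraries. MT1F was at 19.3, 10.8 and 9.58 FPKM in control and at 13.8, 9.35 and 11.1 FPKM in JOA libraries. In both genes the JOA library was lower in pairs 1 and 2 and higher in pair 3, and the groups overlapped. The log2 fold changes were -0.46 (SE 0.34) for MT1E and -0.16 (SE 0.25) for MT1F, and neither passed the limma test (adjusted p = 1.00).

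SLC30A1 was at 9.27, 7.84 and 7.95 FPKM in MOLM-13 control and at 8.29, 7.36 and 8.21 FPKM in JOA libraries. MTF1 was at 4.79, 4.36 and 4.20 FPKM in control and at 4.69, 4.51 and 4.46 FPKM in JOA libraries. The groups overlapped for both genes. Log2 fold changes were -0.07 (SE 0.09) for SLC30A1 and 0.03 (SE 0.08) for MTF1, each with an adjusted p of 1.00.

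No gene at all was called by limma in MOLM-13 cells (0 of 11693 tested, 0%, with and without the block), while 4.11% of genes had an unadjusted p under 0.05 without the block and 11.1% with it. None of the 7 members had such a p without the block, and 3 did with it. Groups that did not overlap occurred in 0 of 7 members and in 9.65% of genes. Lower in all 3 pairs was 1 of 7 members, against 15.7% of genes. The median log2 fold change of the 5 metallothioneins was -0.33, against 0.01 over all genes tested. It was -0.05 when control replicate 1 alone was left out, the library with the highest metallothionein values of all 12. Leaving out replicate 1 of both groups, an alternative chosen after the data were seen, gave -0.20.

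**Figure D4:**
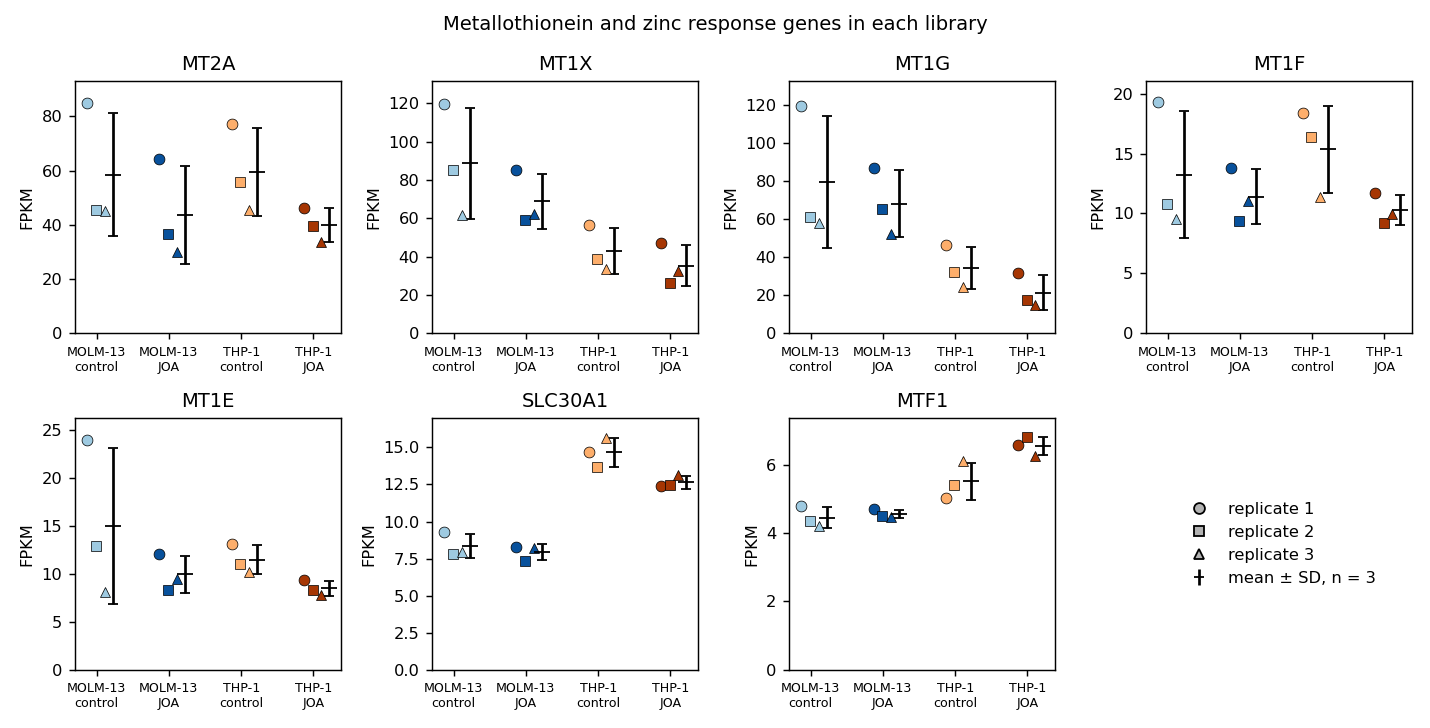
FPKM of the 7 genes in each library, with circles, squares and triangles for replicates 1, 2 and 3 and a bar for the mean ± SD (n = 3 libraries a group); the axes start at 0 and differ between genes. Replicate 1 is the highest metallothionein value of every group, and only MT1E, SLC30A1 and MTF1 have THP-1 control and JOA groups that do not overlap.

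The gap between replicate 1 and the other replicates was also computed for other genes, a description added after replicate 1 was seen to be the highest for the metallothioneins. In MOLM-13 cells the median gap of the 5 metallothioneins on the log2 scale was 0.92 in control and 0.49 in JOA libraries. It was 0.08 and 0.12 for 163 genes with transcripts of at most 800 bases, and 0.04 and 0.03 for all 9686 genes with a mean of at least 1 FPKM. In THP-1 cells the median gap of the metallothioneins was 0.62 in control and 0.34 in JOA libraries, against 0.04 and -0.10 for 167 short genes and 0.02 and 0.01 for all 10098 genes. The median gap of the metallothioneins was larger in the control than in the JOA libraries of both lines, but single genes differed. As a ratio of replicate 1 to the mean of replicates 2 and 3, it was larger in JOA for MT1G (1.97 against 1.64) and MT1X (1.60 against 1.57) in THP-1 cells. In MOLM-13 cells this held for MT2A (1.93 against 1.87). The other metallothioneins of each line had the larger ratio in control.

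Whether the JOA response differed between the lines was tested by the interaction of line and treatment over all 12 libraries. No gene was called (0 of 12626, 0%, 7.24% at an unadjusted p under 0.05), and none of the 7 members had an unadjusted p under 0.05. The largest difference was that of MT1G, whose log2 fold change was 0.55 lower in THP-1 than in MOLM-13 cells (-0.55, SE 0.48, limma adjusted p = 0.881; 0.148 with the block). With the block, 0.0475% of genes and no member were called. In that fit 1 of 7 members had an unadjusted limma p under 0.05, against 14.9% of genes. The difference of MTF1 was 0.21 (SE 0.11, adjusted p = 0.739), that of SLC30A1 -0.14 (SE 0.11, adjusted p = 0.874) and that of MT1F -0.39 (SE 0.35, adjusted p = 0.881). For MT1E, MT1X and MT2A it lay between -0.12 and 0.05. The response was therefore not shown to differ between the lines for any member.

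Control cells of the lines were compared to give the starting levels. MT1G and MT1X were lower in THP-1 than in MOLM-13 cells and SLC30A1 was higher, while MT1E, MT1F and MT2A did not pass the test. MT1G had a mean of 79.6 ± 34.9 FPKM (SD, n = 3) in MOLM-13 and 34.3 ± 11.2 in THP-1 controls, a log2 fold change of -1.18 (SE 0.31, limma adjusted p = 0.00882). MT1X had a mean of 88.8 ± 29.02 FPKM in MOLM-13 and 42.7 ± 12.0 in THP-1 controls, a log2 fold change of -1.04 (SE 0.25, adjusted p = 0.00626). Neither gene had overlapping groups. SLC30A1 had a mean of 8.35 ± 0.798 FPKM in MOLM-13 and 14.7 ± 0.969 in THP-1 controls, a log2 fold change of 0.81 (SE 0.09, adjusted p = 6.27e-05), again without overlap.

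MTF1 was higher in each THP-1 control library, at a mean of 5.52 ± 0.547 against 4.45 ± 0.302 FPKM, and its log2 fold change of 0.30 (SE 0.10, limma adjusted p = 0.0221) stayed under the fold threshold. MT2A was nearly level, with means of 58.5 ± 22.8 FPKM in MOLM-13 and 59.5 ± 16.3 in THP-1 controls (log2 fold change 0.05, SE 0.27, adjusted p = 0.865). The log2 fold change was -0.25 (SE 0.33) for MT1E and 0.26 (SE 0.27) for MT1F, with adjusted p of 0.515 and 0.414. These 3 of 7 calls stand against 44% of the 12635 genes tested (25% higher and 19% lower in THP-1 cells), 4 of 7 had an adjusted p under 0.05, against 71.2% of genes, and the 4 members without overlap stand against 74.8% of genes. The median log2 fold change was -0.25 for the 5 metallothioneins and 0.06 for all genes. That of the metallothioneins was 0.16 without MOLM-13 control replicate 1 and -0.62 without MOLM-13 control replicate 3, so that its sign rested on a single library. Rescaling to equal totals moved the median of all genes to 0.17 and kept the 3 calls.

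Of the other metallothionein genes, MT1H was clearly above 0 in MOLM-13 cells and the rest were near or at 0. Of 17 further symbols of the family, pseudogenes included, 7 had a row. MT1H, whose promoter is shown above, was at 6.80, 3.12 and 0.627 FPKM in MOLM-13 control and at 2.76, 1.51 and 2.09 FPKM in MOLM-13 JOA libraries, and it was listed at 0 in all 6 THP-1 libraries. The MOLM-13 groups overlapped (log2 fold change -0.23, SE 0.69, limma adjusted p = 1.00). MT1B and MT4, with 3 MRE cores each, and MT1HL1 were listed at 0 in all 12 libraries. MT1A and MT3 (the isoform known from brain) were listed at 0 in MOLM-13 cells and reached at most 0.300 and 0.327 FPKM in a THP-1 library. MT1M reached 1.00 FPKM in THP-1 control replicate 1 and was listed at 0 in 8 of the 12 libraries.

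Other zinc transporters showed no called change with JOA. Of 9 further exporters of the SLC30 family, 4 were tested in MOLM-13 and 5 in THP-1 cells. Of 14 importers of the SLC39 family 11 were tested in each line. In either line 0 were called, with or without the block, against 0% of all genes in MOLM-13 and 0.134% (1.27% with the block) in THP-1 cells. With the block, 1 of the 5 exporters in THP-1 cells had a limma adjusted p under 0.05 (0.0271), against 8.06% of all genes, and 0 of the 11 importers did. In THP-1 cells the median log2 fold change was 0.10 over the 5 exporters (-0.30 to 0.31) and 0.06 over the 11 importers (-0.23 to 0.32). In MOLM-13 cells the median was 0.00 and 0.03.

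Between the control lines, 5 of 11 importers and 1 of 5 exporters tested were called, against 44% of all genes. SLC39A1, a plasma membrane zinc importer, was at 17.7 to 19.2 FPKM in MOLM-13 and 38.9 to 43.8 FPKM in THP-1 controls (log2 fold change 1.18, SE 0.07, limma adjusted p = 1.42e-06). SLC39A8, which carries zinc and manganese, was also higher in THP-1 cells (0.73, SE 0.09). SLC39A4, the importer mutated in acrodermatitis enteropathica, was lower there, at 9.93 to 11.8 FPKM in MOLM-13 and 3.16 to 3.62 FPKM in THP-1 controls (log2 fold change -1.60, SE 0.09). SLC39A11 (-0.95, SE 0.09) and SLC39A14 (-0.92, SE 0.09) were lower as well. SLC30A3, an exporter of synaptic vesicles, was higher in THP-1 cells (1.75, SE 0.20) at a mean of 0.302 FPKM, and its call was lost with a pseudocount of 1.

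**Figure D5:**
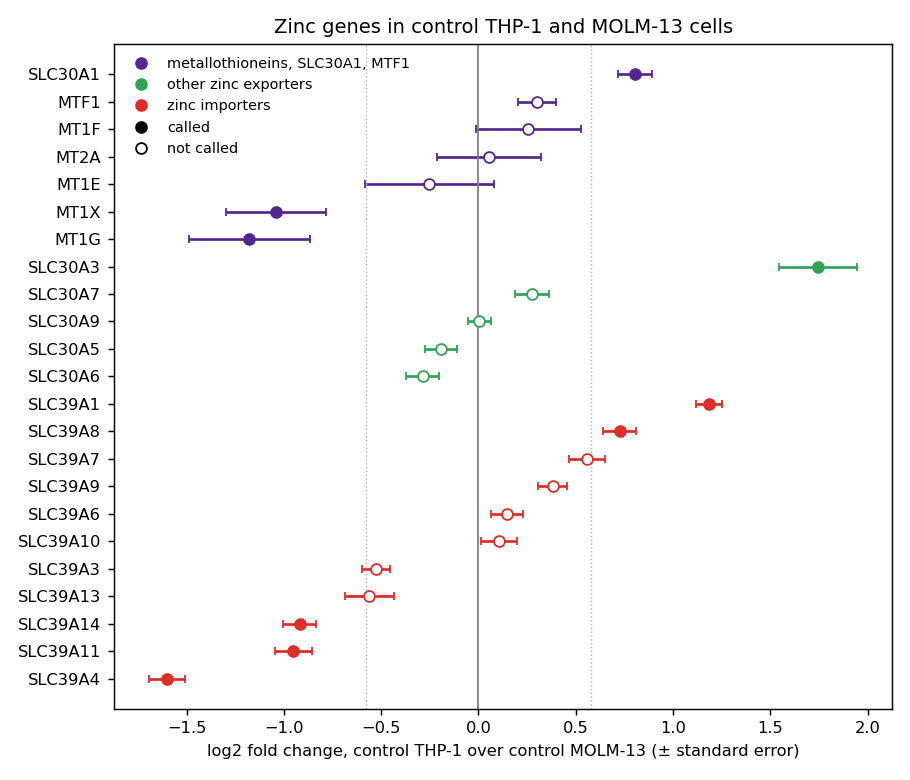
Log2 fold change of zinc genes in control THP-1 over control MOLM-13 cells, with bars for the standard error of limma; filled points pass both thresholds (dotted lines mark 0.58). SLC30A1 (0.81) and SLC39A1 (1.18) lie to the right, and MT1X (-1.04), MT1G (-1.18) and SLC39A4 (-1.60) to the left.

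Genes for copper handling, whose metal metallothioneins also bind, were not called with JOA in either line (10 of 11 tested in each). Over all genes, 0% were called in MOLM-13 and 0.134% (1.27% with the block) in THP-1 cells. With the block, 1 of the 10 had a limma adjusted p under 0.05 in THP-1 cells (0.04999), against 8.06% of all genes. The median log2 fold change was 0.05 in MOLM-13 and 0.14 in THP-1 cells. Between the control lines, 6 of the 10 tested were lower in THP-1 cells, among them the copper importer SLC31A1 (log2 fold change -0.98, SE 0.09), the copper chaperone CCS (-0.76, SE 0.11), the exporter ATP7A (-0.68, SE 0.14) and the assembly factor SCO1 (-0.68, SE 0.07). COMMD1 (-0.66, SE 0.16) and SLC31A2 (-0.62, SE 0.14) were the others. None was called as higher, and the background of lower calls was 19%. The calls of COMMD1, SLC31A2 and ATP7A were lost in 4 of 20, 3 of 19 and 2 of 19 alternatives, among them a pseudocount of 1. COMMD1 was at -0.57 without MOLM-13 control replicate 2 and at -0.50 without THP-1 control replicate 2, and SLC31A2 was at -0.50 without THP-1 control replicate 3.

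Of the 11 metal and electrophile stress genes tested in THP-1 cells, 10 had a positive log2 fold change, as had 56.7% of all genes, with a median of 0.35. None was called without the block and 1 was called with it, against 0.134% and 1.27% of all genes. With the block 6 had an adjusted p under 0.05, all positive, against 8.06% of all genes. HMOX1, the heme-degrading enzyme, was at 1.18, 1.90 and 1.77 FPKM in THP-1 control and at 3.20, 3.23 and 5.64 FPKM in JOA libraries, without overlap. Its log2 fold change was 1.24 (SE 0.25, limma adjusted p = 0.0805), and it was called with the block (adjusted p = 0.00941). SRXN1, the sulfiredoxin that repairs oxidized peroxiredoxins and named here after its values were seen, had the 1 adjusted p under 0.05 without the block (0.0497), with a log2 fold change of 0.45, which missed the threshold of size. In MOLM-13 cells 8 of the 11 were positive, against 52.4% of all genes, with a median of 0.10, and none was called, against 0% of all genes. Between the control lines 3 of 11 were called, against 44% of all genes, and NQO1 (1.97, SE 0.16), HSPA1A (1.60, SE 0.27) and GCLM (1.17, SE 0.19) were higher in THP-1 cells.

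Glucocorticoid response genes were split in THP-1 cells, with 4 of 8 positive and 4 negative and a median of -0.01. TSC22D3, which encodes the protein GILZ, was at 3.57, 2.55 and 1.52 FPKM in control and at 7.08, 3.97 and 2.84 FPKM in JOA libraries. The groups overlapped, although each JOA library was above its pair. Its log2 fold change was 0.82 (SE 0.37, limma adjusted p = 0.317), and it was called with the block (adjusted p = 0.00714). It was the 1 gene of the 8 called with the block, against 1.27% of all genes. None of the 8 was called without it, against 0.134% of all genes. No gene of this list was called in MOLM-13 cells (7 tested), against 0% of all genes. Between the control lines 6 of 8 were called, against 44% of all genes, and ZBTB16 (2.15), CRISPLD2 (1.45) and SGK1 (1.04) were higher and DUSP1 (-1.54), TSC22D3 (-1.11) and PER1 (-0.58) were lower in THP-1 cells, each on the log2 scale. The call of PER1 was lost in 9 of 20 alternatives, both rescalings included (log2 fold change -0.72 to -0.42 over all alternatives). That of TSC22D3 was lost in 7 of 20, with adjusted p up to 0.174, including those without replicate 2 or without replicate 3 of either line's controls. CRISPLD2 and SGK1 lost theirs with a pseudocount of 1.

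The 5 metallothioneins varied together from library to library. After centring log2 values on each line, Pearson's r between any 2 of them was 0.776 to 0.900 over the 12 libraries, and between SLC30A1 and a metallothionein it was 0.491 to 0.692. Against the metallothionein mean, SLC30A1 had an r of 0.623 over the 12 libraries, rank 1024 from the highest among 11350 genes outside the family. MTF1 had -0.301 (rank 8439). MTF1 went opposite ways in the lines, with r against the metallothionein mean of 0.772 over the 6 MOLM-13 libraries and -0.840 over the 6 THP-1 libraries, and SLC30A1 had 0.846 and 0.430. These points share their libraries, and the metallothioneins share sequence, so the values are a description. Among 11350 genes outside the family, those most like the metallothionein mean were LMNB2 (a lamin, r = 0.959), BCL7A (0.957), NCL (nucleolin, 0.957), ANAPC2 (an anaphase-promoting complex subunit, 0.953) and NRGN (0.951). The most opposite were ACVR1 (an activin receptor, -0.949), BMT2 (-0.924), CPNE3 (-0.916), ICAM1 (an adhesion molecule, -0.912) and ZNF697 (-0.912). None of these 10 genes was called with JOA in either line, with or without the block. Over all genes, 0% were called in MOLM-13 and 0.134% (1.27% with the block) in THP-1 cells. NRGN had a blocked limma adjusted p of 0.0265 in THP-1 cells, but its log2 fold change of -0.21 missed the threshold of size.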

How the data were processed

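Stranded mRNA libraries of both lines were sequenced as paired-end reads. The authors deposited 1 table of FPKM values for 20030 genes and 12 libraries. The submitters' processing notes name Trimmomatic, HISAT2, Cufflinks, HTSeq and hg38, without versions; the annotation and the handling of fragments matching several genes are not given in the sources used here. The study used DESeq on counts, which FPKM values do not allow. With the same thresholds it reported changed genes in both lines, and more in each than were called here. A gene not called here was therefore not shown to be unchanged.

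Genes with a mean of at least 0.1 FPKM in the libraries of a comparison were kept, and log2(FPKM + 0.1) was fitted with limma 3.58.1 in R 4.3.3 (eBayes with a trend). Fold changes on this scale understate those of low genes. A call needed a Benjamini-Hochberg adjusted p under 0.05 over all genes tested and a log2 fold change of at least 0.58 in size; the interaction needed the adjusted p alone. Same-numbered control and JOA libraries of a line deviated together in all 3 pairs, at r above 0.1, so the numbers, which come from the sample records, were taken as pairs. Exact permutation tests used SciPy 1.17.1. The procedure was tested on simulated data.

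The genes and lists were chosen with earlier results of these data known. Named were the members, other metallothioneins with a row, list genes past the thresholds in any comparison and the 5 genes most and least like the metallothionein mean. Positions are from GENCODE v29 on GRCh38 and promoters from RefSeq (GRCh38.p14). Alternatives covered the pseudocount, the filter, rescaling, the eBayes trend, the block, 1 fit on all libraries, the fold threshold and leaving out libraries.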

Additional observations from a re-analysis of the deposited data

How the results depend on the processing

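With the replicate block, 1 of 7 members was called in THP-1 cells (MT1G) in place of 0. In blocked fits chosen after the data were seen, 1 member was called without replicate 1 of every group, 2 without replicate 2 and 3 without replicate 3. Over all genes these fits called 162 of 12714, 207 of 12714 and 222 of 12688 genes. The count of members called stayed at 0 in MOLM-13 cells and in the interaction, and at 3 between the control lines (4 by the adjusted p alone), under the other alternatives run. The replicate block changed no other call of a member. Between the control lines the numbers were not taken as pairs (r from 0.0757 to 0.180), and the block gave 5593 calls in place of 5559. Over all genes, calls in THP-1 cells numbered 17, but 0 or 1 whenever a library was left out of the unblocked fit, 0 without a filter, 1 without the eBayes trend, 8 with a pseudocount of 1, 15 to 21 with the other filter, pseudocount and rescalings, 38 by the adjusted p alone, 56 in 1 fit of all libraries and 161 with the block. The interaction gave 0 to 3 calls over all genes without the block, 3 of them without a filter, and 6 with it, and MOLM-13 cells gave 0 or 1.

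No member changed direction in THP-1 cells. Elsewhere the changes of direction came when libraries were left out; the cause was not tested. With 1 library left out, the MOLM-13 log2 fold change with JOA ran from -0.35 to 0.15 for MT1F, -0.36 to 0.17 for MT1G, -0.11 to 0.0083 for SLC30A1, -0.0058 to 0.086 for MTF1 and -1.13 to 0.50 for MT1H, and the interaction from -0.37 to 0.40 for MT1E, -0.19 to 0.29 for MT1X and -0.42 to 0.20 for MT2A. Control THP-1 against control MOLM-13 ran from -0.62 to 0.16 for MT1E and -0.15 to 0.36 for MT2A. Without replicate 1 of every group, with or without the block, the MOLM-13 value was 0.0014 for MT1F and 0.29 for MT1H, the interaction -0.20 for MT1E and -0.039 for MT1X, and the control difference 0.053 for MT1E. Without replicate 2 of every group in the blocked fit, MT1H was at 0.16 in MOLM-13 cells, the interaction of MT1E at -0.059 and the control difference of MT2A at -0.065. The correlations of the 10 genes named for likeness moved by less than 0.05 with another pseudocount or scaling. Depth is unknown, so no counting error is given.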
